A study of Mus musculus with 12 samples.

Results

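Genes of the cells that form brain blood vessels were followed in whole brain of mice with and without Il18, which encodes the inflammatory cytokine interleukin-18. The set holds 44 genes chosen by symbol, with earlier results of these data known. Of these, 36 belong to endothelial cells, which line the vessel, and 8 to mural cells, the pericytes and smooth muscle cells that wrap it. Each gene was measured by 1 array probe, the brightest on average among its probes that exceeded background on every array of 1 group or more. All 44 genes passed that filter, of 26498 genes tested in all, and each was well above background on all 12 arrays, so the filter took no member out.

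Total RNA of whole brain was hybridised to 12 Agilent one-colour arrays in 4 groups of 3: Il18 knockout at 6 weeks, wild type at 6 weeks, Il18 knockout at 12 weeks and wild type at 12 weeks. All animals were untreated and of the BALB/c strain. How the Il18 allele was made is not given in the sources used here. The labels call the replicates biological, and the number of arrays limits the precision of every value. Between 65.9% and 76.2% of an array's 59305 non-control spots were well above background, and no spot was saturated. The highest shares, 76.2% and 74.0%, were those of 12-week wild-type replicates 2 and 3, and every other array had at most 69.4%.

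Brain endothelial cells are sealed to each other by tight junctions and carry transporters that move nutrients in and drugs out, which together make the blood-brain barrier. They respond to VEGF, angiopoietins and blood flow through receptor tyrosine kinases and other surface receptors. Pericytes and smooth muscle cells lie on the outer side of the endothelial tube, are recruited by PDGF-B through the receptor Pdgfrb, and set vessel tone. In RNA of whole brain, fewer cells of a type and less RNA per cell cannot be told apart.

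The arrays lay on 2 slides. Slide 2 held the 3 knockouts of 12 weeks together with 6-week knockout replicate 3, and slide 1 held the other 8 arrays. At 12 weeks slide and genotype therefore coincide, and the only group on both slides is the 6-week knockout. Slide column also ran with the groups: column 2 held the 3 wild types of 6 weeks and 1 of 12 weeks (replicate 1), and column 1 the rest. Values with slide or column as a block are given where they bear on a result.

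Edn1, Cldn5 and Lsr were the only members called at both ages, and the 250 bases before their transcription starts are shown because the results below turn on them. The sequences are RefSeq's for GRCm38.p6, where 26 of the 44 members had an entry, and each is written 5' to 3' on the gene's strand. The search covered 5 motifs on both strands, and matches are in capitals. The Edn1 probe lies on mm9 chromosome 13 at 42403101 to 42403160, the Cldn5 probe on chromosome 16 at 18778046 to 18778105 and the Lsr probe on chromosome 7 at 31742848 to 31742907. Exon or UTR is not given for the probes here. The Edn1 window is chr13:42301226-42301475 on the + strand, the Cldn5 window chr16:18776597-18776846 on the + strand and the Lsr window chr7:30973470-30973719 on the - strand.
Edn1: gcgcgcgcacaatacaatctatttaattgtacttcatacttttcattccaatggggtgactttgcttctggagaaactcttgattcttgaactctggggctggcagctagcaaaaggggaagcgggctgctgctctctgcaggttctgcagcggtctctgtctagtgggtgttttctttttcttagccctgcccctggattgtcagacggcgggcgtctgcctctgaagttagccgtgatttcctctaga
Cldn5: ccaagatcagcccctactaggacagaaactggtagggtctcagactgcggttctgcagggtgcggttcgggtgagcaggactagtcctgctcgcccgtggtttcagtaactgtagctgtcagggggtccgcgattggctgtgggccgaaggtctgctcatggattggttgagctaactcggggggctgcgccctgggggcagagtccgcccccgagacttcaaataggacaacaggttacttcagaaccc
Lsr: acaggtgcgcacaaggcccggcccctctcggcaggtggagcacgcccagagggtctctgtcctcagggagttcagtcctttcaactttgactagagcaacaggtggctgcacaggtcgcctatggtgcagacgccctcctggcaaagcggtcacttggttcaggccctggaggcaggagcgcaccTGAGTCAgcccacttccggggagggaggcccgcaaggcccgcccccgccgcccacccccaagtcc
The Lsr window holds 1 AP-1 match, TGAGTCA, which starts 65 bases before the transcription start. No match to any of the 5 motifs lies in the Edn1 and Cldn5 windows. Of 32851 promoter windows of the same length, 6.75% hold the AP-1 motif, searched as TGANTCA. The ETS motif, searched as CAGGAA, is in 25.7% of them. The GATA motif, searched as AGATAA, is in 9.99%. The SOX motif was searched as ACAAAG and is in 16.5%, and 12.4% hold the TATA motif, searched as TATAAA. The Lsr window is 66.8% G and C with 13 CpG, the Cldn5 window 59.6% with 12 CpG and the Edn1 window 50.4% with 9 CpG. A match describes the letters only.

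The labels were checked first. Il18 was -0.28, -0.17 and -0.20 in 6-week knockouts, against 1.60, 1.75 and 1.52 in 6-week wild types, in log2 signal relative to the 75th percentile of the same array, the scale of every level below. At 12 weeks it was -0.20, -0.23 and -0.32 in knockouts, against 1.51, 1.63 and 1.93 in wild types. The knockout and wild-type arrays did not overlap at either age. Ddx3y, a Y-linked gene, was well above background on all 12 arrays, and of the 2 probes of Xist none was above background on more than 1 array, so the arrays do not split by sex. Cldn5 and Flt1, which define endothelium, and Pdgfrb, which defines pericytes, were above background on all 12 arrays.

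At 6 weeks the question was how vessel genes differ without Il18. The vasoconstrictor peptide Edn1 and the tight-junction genes Cldn5 and Lsr rose, 3 of 44 members, and none fell. Over all 26498 genes 0.925% were called in this comparison, 0.547% higher and 0.377% lower. Of the members, 34 of 44 had a log2 change above 0, against 57.5% of all genes, and their median change was 0.17, against 0.04 for all genes. The arrays of the groups did not overlap for 20 members that were higher in knockout and 1 that was lower, where 15.3% of all genes were wholly higher and 8.37% wholly lower. At an unadjusted p under 0.05 there were 21 members (47.7%), against 18.5% of all genes.

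Edn1, which encodes the precursor of endothelin-1, a peptide that endothelial cells release to contract the smooth muscle around them, had levels of -2.56, -2.83 and -2.84 in 6-week knockouts. In 6-week wild types it stood at -3.93, -3.90 and -3.95. Every knockout array lay above every wild-type array, and the means were -2.74 ± 0.16 in knockout and -3.93 ± 0.02 in wild type (SD, n = 3 each). The log2 change was 1.18 ± 0.10 (SE), a 2.27-fold rise, with a limma adjusted p of 0.000485. The call held in all 13 other settings, with an adjusted p between 0.000291 and 0.0266, and without each array in turn, with a highest adjusted p of 0.00435. The change over those settings was lowest with normexp background correction, at 0.73. With slide as a block the change was 1.23, and with slide column, which coincides with genotype at this age, 1.28 (adjusted p = 0.0266).

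Cldn5, the main sealing protein of brain endothelial tight junctions, had levels of 2.93, 2.71 and 2.94 in 6-week knockouts, against 2.25, 2.21 and 2.13 in 6-week wild types. The groups did not overlap, and the change was 0.66 ± 0.09 (adjusted p = 0.0136), a 1.58-fold rise. With slide as a block it was 0.62 ± 0.10 (adjusted p = 0.0428). With slide column as a block, which coincides with genotype here, the change was 0.50 ± 0.17 and the call ended (adjusted p = 0.510). The call also ended with slide 1 arrays only (adjusted p = 0.0672) and the compared groups alone. Omitting knockout replicate 1 (0.0598) or wild-type replicate 3 (0.0501) ended it too.

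Lsr, the angulin of tricellular junctions, where 3 cells meet, had levels of 1.68, 1.43 and 1.71 in 6-week knockouts. In 6-week wild types the levels were 0.92, 1.02 and 1.04. All knockout arrays were higher, and the change was 0.61 ± 0.11 (adjusted p = 0.0370), a 1.53-fold rise. It kept its sign with slide as a block, at 0.56 ± 0.12, but not its call (adjusted p = 0.0932). With slide column as a block, which coincides with genotype here, the change was 0.63 ± 0.21 (adjusted p = 0.521). The call also ended with replicate number as a block, slide 1 arrays only, no filter on dim probes and the compared groups alone. With 1 array omitted at a time the call held only without knockout replicate 2 (adjusted p = 0.0310), and was between 0.0905 and 0.107 without each of the other 5.

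The other 6 junction and adhesion genes were not called at 6 weeks. Esam, an adhesion molecule of endothelial contacts, had a change of 0.31 ± 0.08 (adjusted p = 0.108) with no overlap of the groups. Icam2, a leukocyte-binding adhesion molecule kept on resting endothelium, had 0.24 ± 0.11 (adjusted p = 0.268). Ocln and Tjp1, a membrane protein and a scaffold of tight junctions, had 0.16 and 0.00, and the adherens-junction protein Cdh5 and the contact protein Pecam1 had 0.09 and 0.14. All 8 junction genes had a change above 0.

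Of the 12 receptors and signals, Edn1 alone was called, and 7 had groups that did not overlap, all higher in knockout. Over all genes 15.3% were wholly higher. Tek, the angiopoietin receptor Tie2, had a change of 0.47 ± 0.11 (adjusted p = 0.0726), Flt1, the VEGF receptor VEGFR1, 0.44 ± 0.12 (adjusted p = 0.104), and Tie1, the partner of Tek, 0.39 ± 0.12 (adjusted p = 0.139). Kdr, the main signalling VEGF receptor, had -0.10 ± 0.10, and Gpr182, a scavenging chemokine receptor, -0.33 ± 0.20. These were the 2 members of the group with a change under 0.

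None of the 4 transporters, 8 surface genes and 4 transcription factors was called at 6 weeks. The surface genes had the highest median change of the 6 roles, 0.35, with Cd93, a C-type lectin of vascular endothelium, at 0.54 ± 0.12 (adjusted p = 0.0680) and Ly6c1, a surface protein abundant in mouse brain endothelium, at 0.44 ± 0.10 (adjusted p = 0.0639). Abcb1a, the drug-efflux pump P-glycoprotein, had 0.32 ± 0.07 (adjusted p = 0.0795). The endothelial transcription factors Foxq1, Sox17, Sox18 and Erg lay between -0.07 and 0.11.

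Mural genes were split at 6 weeks, with 4 changes above 0 and 4 below. Acta2, the actin of smooth muscle, had 0.45 ± 0.14 (adjusted p = 0.143), while Tagln, a calponin-family protein of smooth muscle, had -1.09 ± 0.30 (adjusted p = 0.117). Tagln stood at 1.77, 2.35 and 2.06 in 6-week knockouts, against 4.01, 2.87 and 2.59 in 6-week wild types. Wild-type replicate 1 lay far above the rest, and the groups still did not overlap. The Tagln probe lies on mm9 chromosome 9, 4.65 Mb from the Il18 probe. Of the other members, Esam and Robo4 have probes on that chromosome, 13.0 and 13.2 Mb from the Il18 probe. Pdgfrb had 0.17 ± 0.08 (adjusted p = 0.301).

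**Figure D1:**
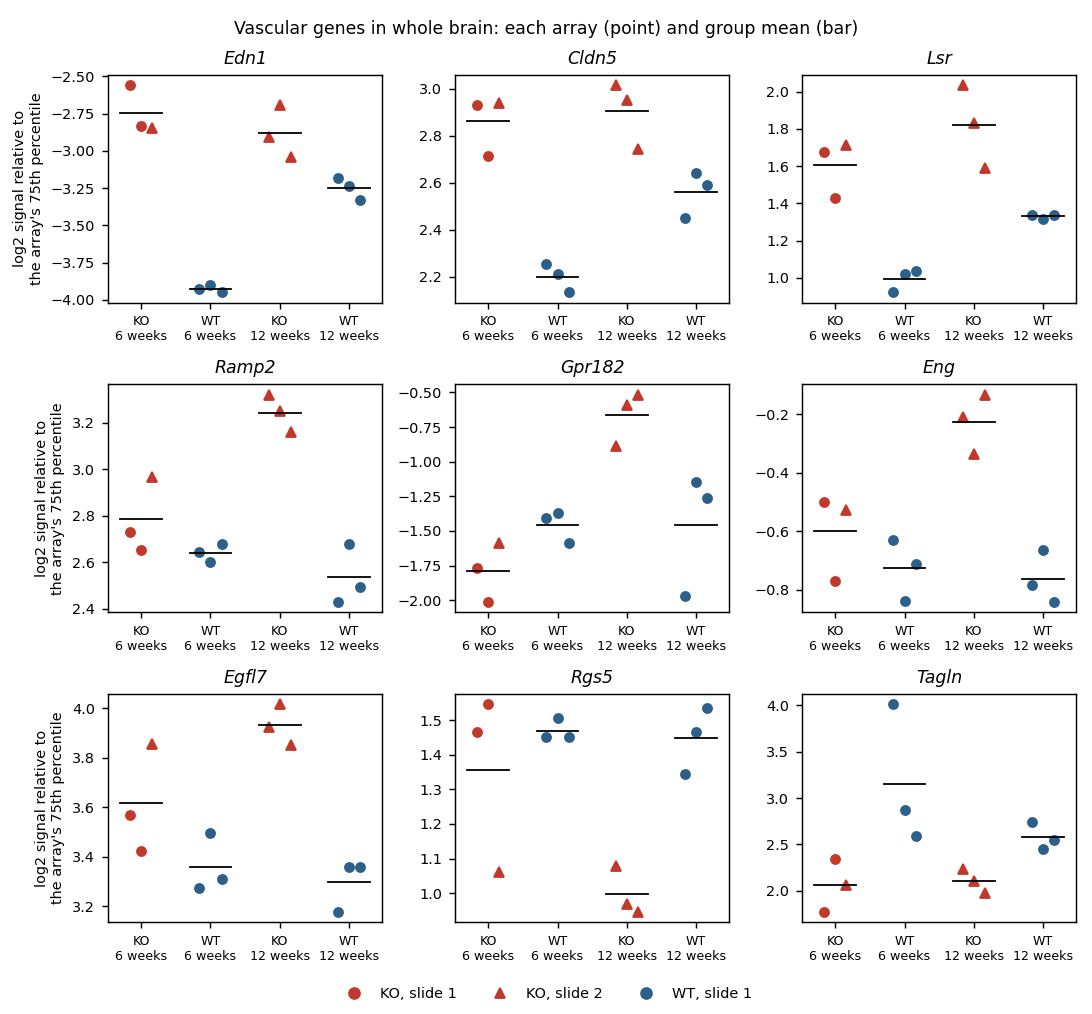
Log2 signal relative to each array's 75th percentile (y axis) for 9 vascular genes in the 4 groups (x axis), with 1 point per array, bars at the group means and triangles for slide 2. Edn1, Cldn5 and Lsr are higher in knockout at both ages, and for Rgs5 the 6-week knockout array on slide 2 (1.06) lies with the 12-week knockouts and not with the 6-week knockout arrays of slide 1 (1.46 and 1.55).

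At 12 weeks the same question was asked in older animals. Here 15 of 44 members rose and 1 fell, the pericyte gene Rgs5. Over all genes 33.0% were called in this comparison, 18.5% higher and 14.5% lower. Of the members 33 had a change above 0, against 51.8% of all genes, and the median was 0.23, against 0.02 for all genes. With slide as a block these medians were 0.13 and -0.04. Markers of other cells, described below, had medians without the block of 0.70 (blood), 0.33 (oligodendrocytes), 0.24 (microglia) and 0.20 (neurons). Those of astrocytes, choroid plexus and meningeal fibroblasts were 0.04, -0.0002 and -0.05. The groups did not overlap for 22 members that were higher in knockout and 4 that were lower, where 29.2% and 23.1% of all genes did so. With slide as a block none of the 44 was called (limma, lowest adjusted p = 0.509), and 5 had an unadjusted p under 0.05. Without the block 25 members had one (56.8%), against 45.5% of all genes. All 16 called changes kept their sign in that fit, 2 were at least as large, and the median ratio of the standard errors with and without the block was 1.71. Of the 28 uncalled members 7 turned sign with the block: Ocln, Kdr, Slco1a4, Emcn, Plvap, Kcnj8 and Notch3. Only the 6-week knockout group links the slides.

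Of the 12 receptors and signals 8 were called at 12 weeks, all higher, where 18.5% of all genes were called higher. The median change of the 12 was 0.40. Ramp2, the partner of the adrenomedullin receptor and needed for vessel integrity, had levels of 3.32, 3.25 and 3.16 in 12-week knockouts. In 12-week wild types it had 2.43, 2.68 and 2.50. The groups lay wholly apart, and the change was 0.71 ± 0.10 (adjusted p = 0.00382), or 0.43 ± 0.14 with slide as a block (adjusted p = 0.509).

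Gpr182 stood at -0.89, -0.59 and -0.52 in 12-week knockouts, against -1.97, -1.15 and -1.26 in 12-week wild types. Wild-type replicate 1 was lowest and the groups did not overlap. The change was 0.80 ± 0.20 (adjusted p = 0.0160), opposite in sign to the -0.33 at 6 weeks, and 0.49 ± 0.37 with slide as a block.

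Egfl7, a matrix-bound factor that endothelial cells secrete, had levels of 3.93, 4.02 and 3.85 in 12-week knockouts, against 3.18, 3.36 and 3.36 in 12-week wild types. The change was 0.63 ± 0.11 (adjusted p = 0.00614), and 0.27 ± 0.15 in the fit with the slide block. Eng, the TGF-beta co-receptor endoglin, had levels of -0.21, -0.33 and -0.13 in 12-week knockouts, against -0.78, -0.67 and -0.84 in 12-week wild types. Its change was 0.54 ± 0.10 (adjusted p = 0.00606), and 0.43 ± 0.17 in the fit with the slide block. Neither gene's groups overlapped.

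The other 4 receptors and signals called at 12 weeks rose by less. Flt1 (0.44 ± 0.12), Tie1 (0.44 ± 0.12) and Robo4, an endothelial roundabout receptor that stabilises vessels (0.30 ± 0.10), had adjusted p between 0.0182 and 0.0377. In the fit with the slide block their changes were 0.10 for Flt1, 0.26 for Tie1 and 0.15 for Robo4. Edn1 had -2.91, -2.69 and -3.04 in 12-week knockouts, against -3.18, -3.23 and -3.33 in 12-week wild types. Its groups again did not overlap, the change was 0.37 ± 0.10 (adjusted p = 0.0233), and it was 0.52 ± 0.18 with slide as a block. Kdr (0.20), Tek (0.12), Ptprb, a phosphatase of the Tek receptor (0.10), and Gpr116, an adhesion receptor now named Adgrf5 (-0.21), were not called.

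Of 8 junction genes, 3 were called at 12 weeks, all higher, where 33.0% of all genes were called and 18.5% called higher. Cldn5 had 3.02, 2.95 and 2.74 in 12-week knockouts, against 2.45, 2.64 and 2.59 in 12-week wild types, a change of 0.34 ± 0.09 (adjusted p = 0.0210). Lsr had 2.04, 1.83 and 1.59 in 12-week knockouts, against 1.34, 1.32 and 1.34 in 12-week wild types, a change of 0.49 ± 0.11 (adjusted p = 0.0111). Icam2 had 1.07, 0.92 and 0.94 in 12-week knockouts, against 0.28, 0.60 and 0.57 in 12-week wild types, a change of 0.49 ± 0.11 (adjusted p = 0.00955). The groups did not overlap for any of the 3, and 29.2% of all genes were wholly higher in knockout at this age. The slide block left 0.23 for Cldn5, 0.33 for Lsr and 0.23 for Icam2. Ocln (-0.27) and Tjp1 (-0.18) were not called. With the block Ocln turned to 0.27 and Tjp1 was -0.13.

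Among transporters, Slc38a5, which carries glutamine and other neutral amino acids, rose by 0.70 ± 0.21 (adjusted p = 0.0310). It had 0.90, 0.90 and 0.85 in 12-week knockouts, against -0.01, 0.66 and -0.08 in 12-week wild types. Its change was 0.22 with slide as a block (adjusted p = 0.896) and 0.60 with slide column as a block (0.0965). Slc7a5, the large neutral amino acid transporter LAT1, had 3.38, 3.17 and 3.05 in 12-week knockouts, against 2.34, 3.29 and 2.17 in 12-week wild types, and was not called (0.60 ± 0.26, adjusted p = 0.0975). For both genes wild-type replicate 2 lay well above the other two. Abcb1a had 0.19 and Slco1a4, an organic anion transporter of the barrier, -0.25, neither called.

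Of the surface genes, Cd93 (0.49 ± 0.12, adjusted p = 0.0138) and Podxl, a sialomucin of the luminal face (0.41 ± 0.13, adjusted p = 0.0371), rose. With the slide block Cd93 had 0.25 and Podxl 0.59. Ly6c1, Ly6a, Emcn, Itm2a, Plvap and Vwf were not called, with changes between -0.05 and 0.34. Plvap, a protein of fenestrated vessels that the mature barrier largely lacks, had 0.34 ± 0.13 (adjusted p = 0.0636) and turned to -0.08 with the slide block, and Vwf, the clotting factor stored in endothelium, had -0.05. The 4 transcription factors had changes from 0.00 for Erg to 0.37 for Foxq1, and none was called.

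Of the 8 mural genes 1 rose and 1 fell at 12 weeks, where 18.5% of all genes were called higher and 14.5% lower. Rgs5, a regulator of G-protein signalling used as a pericyte marker, had levels of 1.08, 0.97 and 0.95 in 12-week knockouts. In 12-week wild types it had 1.34, 1.46 and 1.53. The groups did not overlap, and the change was -0.45 ± 0.11 (adjusted p = 0.0162). With slide as a block it was -0.005 ± 0.12. The 6-week knockout replicate 3, also on slide 2, had 1.06, and replicates 1 and 2 on slide 1 had 1.46 and 1.55. Its sign was kept but its call ended under scaling by each array's median.

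Vtn, a matrix protein that brain pericytes make, rose by 0.26 ± 0.09 (adjusted p = 0.0413), and that call was lost in each of the 6 leave-one-out fits (adjusted p from 0.0639 to 0.113). With the slide block its change was 0.06.

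Of the 16 calls at 12 weeks, those of Lsr, Icam2, Eng, Ramp2, Egfl7 and Cd93 held without each of the 6 arrays in turn. Gpr182 lost its call without knockout replicate 3 (adjusted p = 0.0505) and Rgs5 without wild-type replicate 3 (0.0524). Cldn5 lost it without wild-type replicate 1 (0.0696) or knockout replicate 1 or 2 (0.0771 and 0.0621), and Tie1 without knockout replicate 1 (0.0693) or either of wild-type replicates 2 and 3. Edn1 kept its call only without knockout replicate 3 or wild-type replicate 1, and Flt1 and Robo4 only without knockout replicate 3 or wild-type replicate 2. Slc38a5 kept it only without wild-type replicate 2 and Podxl only without knockout replicate 2. Over the 12 other settings Robo4 kept its call in 5 and Vtn in 7. Flt1, Cldn5, Slc38a5 and Podxl each kept it in 9, and Rgs5 in 10. Quantile normalization ended the calls of Robo4, Vtn, Flt1 and Cldn5. The remaining calls were lost only with slide as a block.

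The other mural genes were not called at 12 weeks. Pdgfrb (-0.18), Abcc9 and Kcnj8, which form the pericyte potassium channel (-0.04 each), Notch3, a receptor of mural cells (0.18), Acta2 (0.39) and Tagln (-0.47) had changes of both signs. The median over the 8 mural genes was -0.04, and over the 36 endothelial genes 0.28, where all genes had 0.02.

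**Figure D2:**
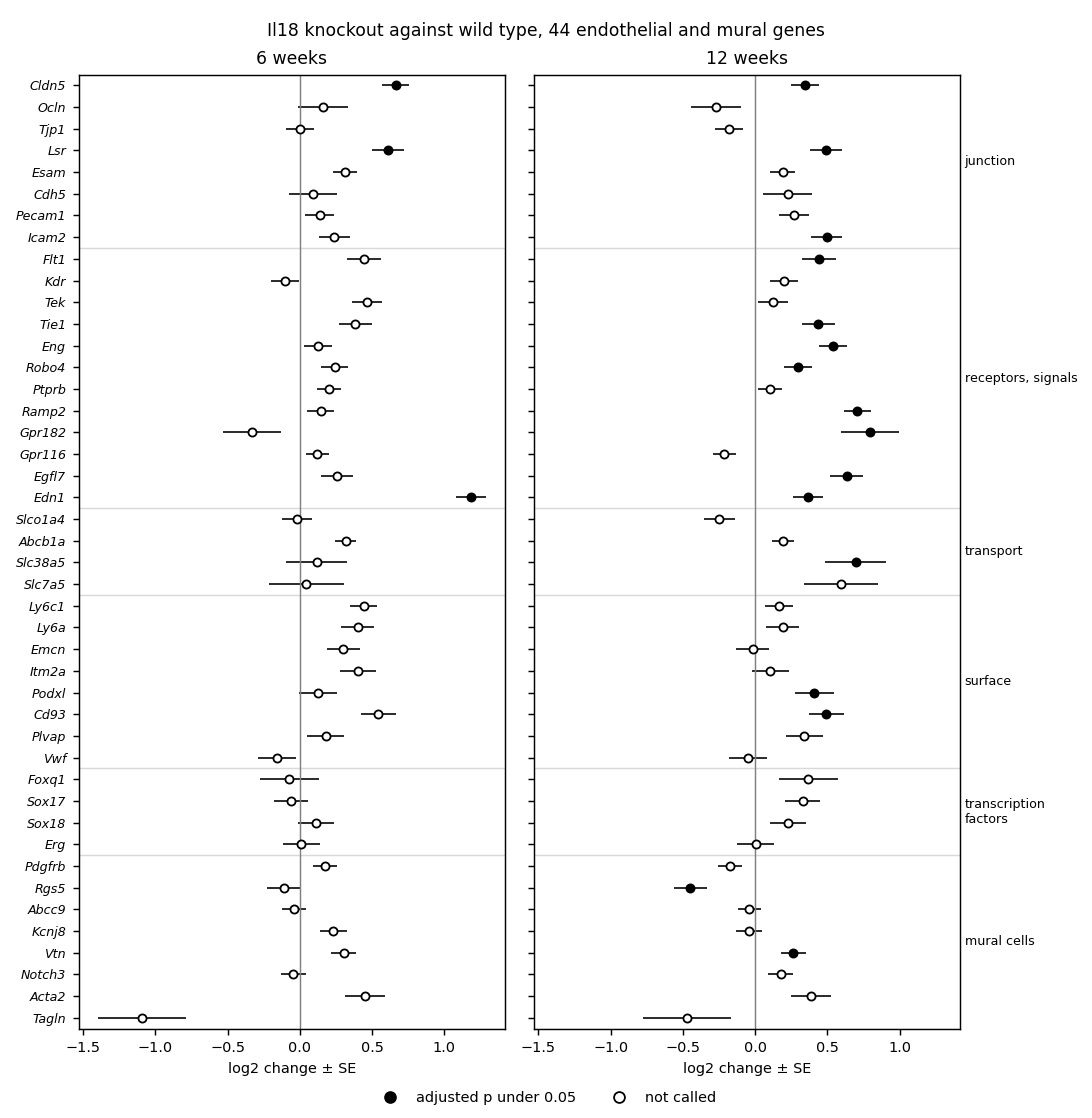
Log2 change of Il18 knockout against wild type (x axis, ± SE from limma) for each of the 44 genes (y axis, grouped by role) at 6 weeks (left) and 12 weeks (right); filled points have an adjusted p under 0.05. At 6 weeks Edn1 (1.18), Cldn5 (0.66) and Lsr (0.61) are filled; at 12 weeks 15 genes are filled to the right of 0 and Rgs5 (-0.45) to the left.

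Of the members, 7 had a second probe that passed the filter, and for 3 of them the second probe was called at 12 weeks where the one used was not. In a fit over all kept probes, the second Kdr probe gave 0.65 ± 0.13 (adjusted p = 0.00825) and the one used 0.20 ± 0.10 (adjusted p = 0.139). The second Ocln probe gave -0.91 ± 0.18 (adjusted p = 0.00869) and the one used -0.27 ± 0.17. The second Ly6c1 probe gave 0.31 ± 0.10 (adjusted p = 0.0350) and the one used 0.17 ± 0.10. None of these 6 probes was called at 6 weeks. For Slc7a5, Plvap, Sox17 and Ptprb neither probe was called at either age. At 12 weeks their second probes gave 0.07, 0.37, 0.58 and -0.01, and the ones used 0.60, 0.34, 0.33 and 0.10. At 6 weeks the second probes of Ptprb (-0.24), Plvap (-0.21) and Slc7a5 (-0.05) were opposite in sign to the ones used (0.20, 0.18 and 0.05).

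On each array, the median deviation of the 36 endothelial genes from their mean over all arrays was 0.31, 0.23 and 0.15 in 12-week knockouts and -0.10, 0.01 and -0.03 in 12-week wild types. In 6-week knockouts it was 0.08, -0.11 and 0.09, against -0.14, -0.20 and -0.22 in 6-week wild types. The knockout arrays lay above the wild-type arrays of the same age at both ages. The 8 mural genes gave -0.03, 0.06 and 0.01 in 12-week knockouts, against -0.01, 0.08 and 0.06 in 12-week wild types, and those groups overlapped. Across the 4 groups, the highest mean lay in 12-week knockouts for 27 of the 44 genes and the lowest in 6-week wild types for 25.

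Within slide 1, 6-week knockout replicates 1 and 2 minus the 6-week wild types gave a median of 0.14 over the 36 endothelial genes, with 29 above 0, against 0.02 over all genes. Knockout replicate 3 on slide 2 minus replicates 1 and 2 on slide 1 gave a median of 0.11 over the same genes, against 0.07 over all genes. Within slide 2, the 12-week knockouts minus 6-week knockout replicate 3 gave 0.09, against -0.05 over all genes. The last difference rests on a lone 6-week array.

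**Figure D3:**
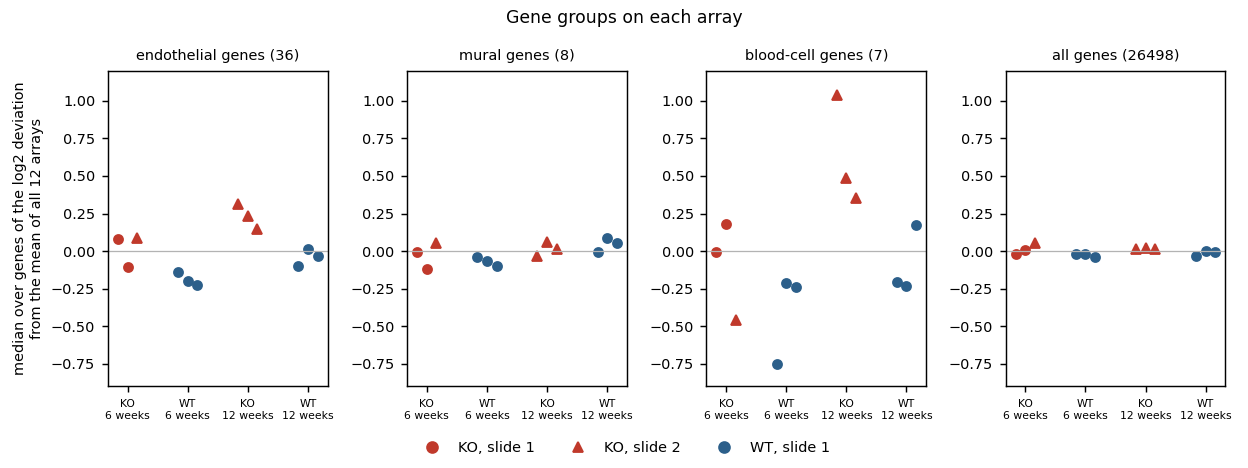
Median over the genes of a group of the log2 deviation from the mean of all 12 arrays (y axis) on each array of the 4 groups (x axis), for 36 endothelial genes, 8 mural genes, 7 blood-cell genes and all 26498 genes; triangles are slide 2. The endothelial medians of the 12-week knockouts (0.15 to 0.31) lie above those of every other array, and the blood-cell medians are also highest there (0.35 to 1.04).

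**Figure D4:**
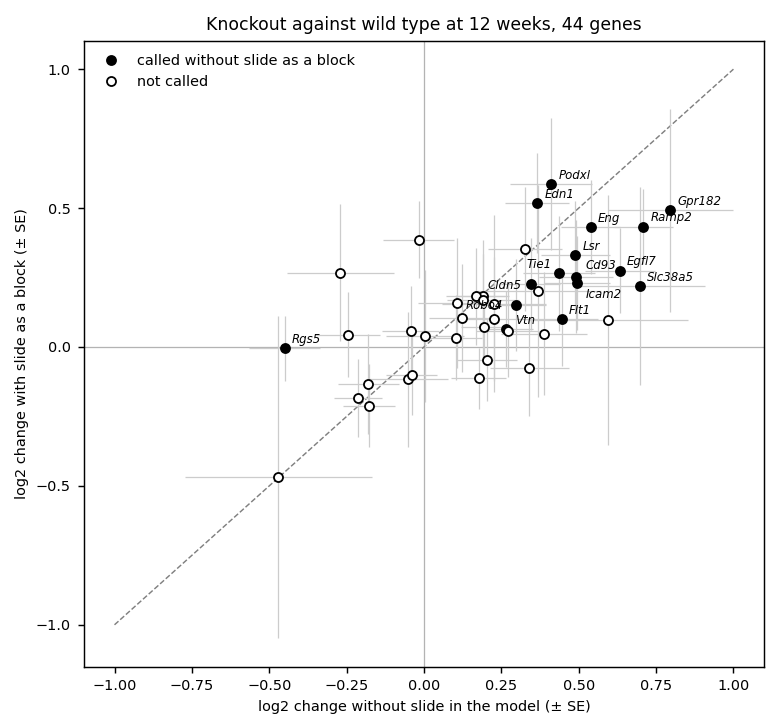
Log2 change of knockout against wild type at 12 weeks for the 44 genes without slide in the model (x axis) and with slide as a block (y axis), each ± SE from limma; filled points were called without the block and the dashed line marks equal values. All 16 filled points keep their sign, Podxl (0.59) and Edn1 (0.52) lie above the line, and Rgs5 lies at -0.005 with the block.

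With age in knockout, 12 against 6 weeks, 3 of 44 members rose and none fell, where 2.0% of all genes were called, 1.09% higher and 0.913% lower. Gpr182 had -0.89, -0.59 and -0.52 in 12-week knockouts, against -1.77, -2.01 and -1.59 in 6-week knockouts, a change of 1.12 ± 0.20 (adjusted p = 0.0353). Ramp2 had 3.32, 3.25 and 3.16 in 12-week knockouts, against 2.73, 2.66 and 2.97 in 6-week knockouts, a change of 0.46 ± 0.10 (adjusted p = 0.0463). Podxl had -1.87, -2.22 and -1.87 in 12-week knockouts, against -2.35, -2.73 and -2.71 in 6-week knockouts, a change of 0.61 ± 0.13 (adjusted p = 0.0483).

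The groups did not overlap for these 3 genes, and over all genes 11.8% were wholly higher at 12 weeks in knockout. None of the 3 calls held with slide as a block, where the changes were 0.92 for Gpr182, 0.28 for Ramp2 and 0.73 for Podxl. Gpr182 and Ramp2 kept their calls only without 6-week knockout replicate 3, and Podxl without that array or 12-week knockout replicate 2. Without 6-week knockout replicate 3, the only 6-week knockout on slide 2, 17 members were called, 13 higher and 4 lower, and 28.0% of all genes.

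With age in wild type, where all arrays share slide 1, 2 members rose and none fell, against 0.638% of all genes, 0.430% higher and 0.208% lower. Edn1 had -3.18, -3.23 and -3.33 in 12-week wild types, against -3.93, -3.90 and -3.95 in 6-week wild types. Every 12-week array was higher, with a change of 0.68 ± 0.10 (adjusted p = 0.0224). Abcb1a had 0.68, 0.73 and 0.71 in 12-week wild types, against 0.34, 0.26 and 0.16 in 6-week wild types, a change of 0.46 ± 0.07 (adjusted p = 0.0281).

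Both calls ended when each of the 6 arrays was omitted in turn (adjusted p up to 0.0986 for Edn1 and 0.109 for Abcb1a). They also ended with slide column as a block, where Edn1 had 0.74 (adjusted p = 0.0729) and Abcb1a 0.43 (0.158), and both ended without a filter on dim probes. With normexp correction Edn1 had 0.36 and lost its call. Column 2 held all 6-week wild types and 12-week replicate 1. The next members by adjusted p were Ly6a (0.61 ± 0.12, adjusted p = 0.0518) and Ly6c1 (0.50 ± 0.10, adjusted p = 0.0540), which pass with slide as a block. That block cannot alter a change within slide 1, so both changes stayed the same and passing says nothing about a slide effect. With slide column as a block Ly6a had 0.35 and Ly6c1 0.31. In knockout Abcb1a had a change with age of 0.34 ± 0.07 (adjusted p = 0.0501) and Edn1 of -0.14 ± 0.10 (adjusted p = 0.413).

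**Figure D5:**
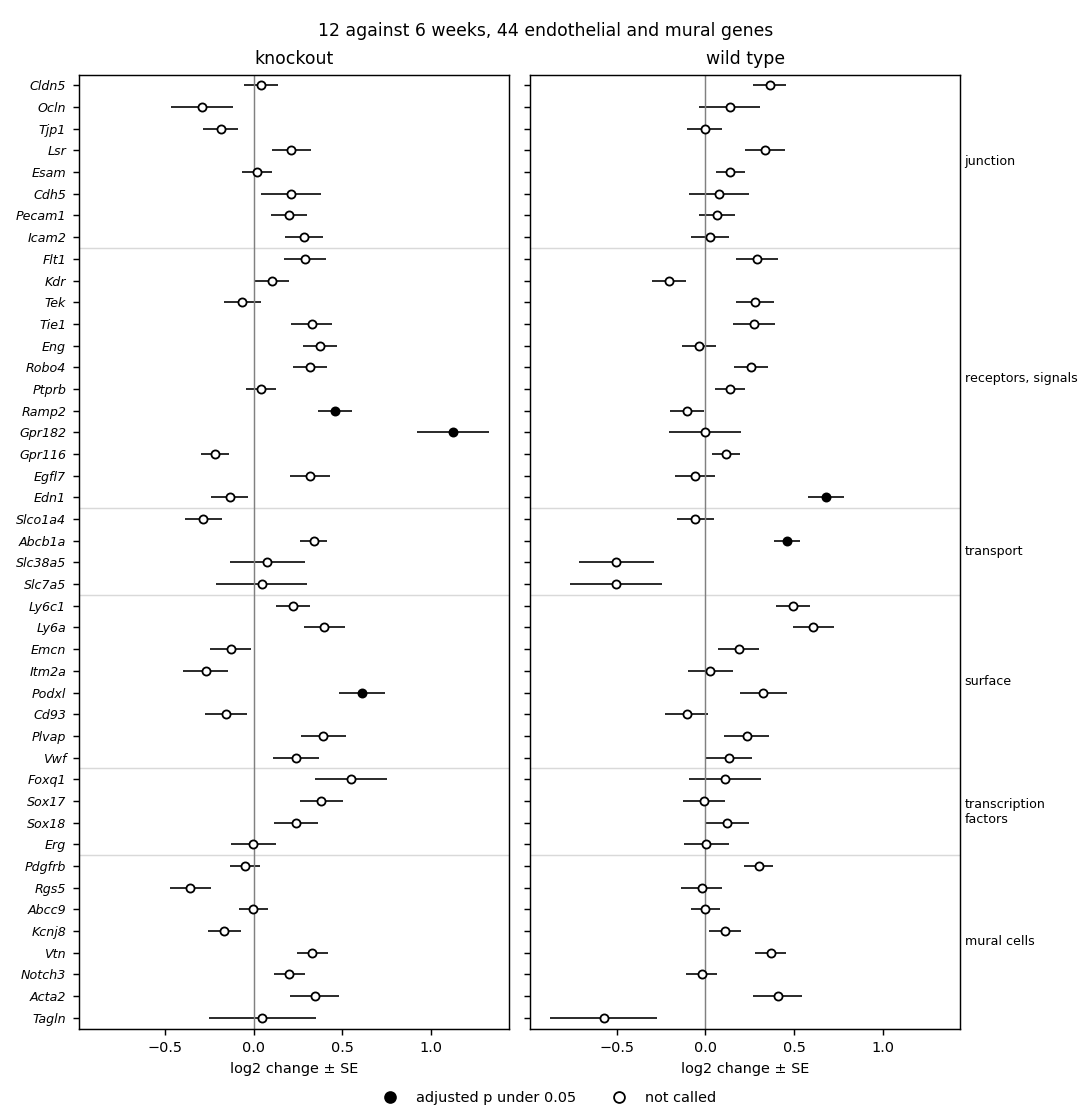
Log2 change of 12 against 6 weeks (x axis, ± SE from limma) for the 44 genes (y axis, grouped by role) in knockout (left) and wild type (right); filled points have an adjusted p under 0.05. Gpr182 (1.12), Podxl (0.61) and Ramp2 (0.46) are filled in knockout, and Edn1 (0.68) and Abcb1a (0.46) in wild type.

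Whether the genotype effect differs between the ages was tested as the effect at 12 weeks minus that at 6 weeks. None of the 44 members was called by limma, 11 had an unadjusted p under 0.05 (25%, against 19.6% of all genes), and 0.189% of all genes were called, 0.0453% higher and 0.143% lower. Edn1 had the lowest adjusted p, with a difference of -0.82 ± 0.15 (adjusted p = 0.0609), and it passed with only probes above background on all 12 arrays and without 12-week knockout replicate 2. Gpr182 had 1.13 ± 0.29 (adjusted p = 0.123) and Ramp2 0.56 ± 0.14 (adjusted p = 0.114). Without 6-week knockout replicate 3, 7 members were called, among them those 3, and 17.8% of all genes.

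Lists of other genes of vessels were counted beside the members, and every called gene is named, those beyond 3 per list after their values were seen. Between genotypes 0.925% of all genes were called at 6 weeks and 33.0% at 12 weeks, the shares to set beside each list's counts. Of 10 basement membrane genes, Col4a1 rose at 6 weeks (0.57 ± 0.10, adjusted p = 0.0284), and Col4a2 (0.80 ± 0.12), Sparc (0.51 ± 0.12) and Nid1 (0.36 ± 0.12) rose at 12 weeks. Col4a1 and Col4a2 encode the collagen IV chains of the vessel sheet. Col4a1 had -0.27, -0.48 and -0.40 in 6-week knockouts, against -1.10, -1.03 and -0.74 in 6-week wild types. With slide as a block its change was 0.58 (adjusted p = 0.0642).

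Of 16 angiogenic ligands, receptors and guidance genes, none was called at 6 weeks. At 12 weeks Pdgfb, the ligand of Pdgfrb (0.52 ± 0.10), and the Notch ligand Jag2 (0.31 ± 0.08) rose, and Angpt1, the Tek ligand (-0.39 ± 0.09), the Notch ligand Jag1 (-0.43 ± 0.11) and the netrin receptor Unc5b (-0.36 ± 0.07) fell. Vegfa, the main ligand of Kdr and Flt1, was not called in either comparison.

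Of 14 barrier and Wnt pathway genes, none was called at 6 weeks. At 12 weeks 3 rose and 3 fell, where 18.5% of all genes were called higher and 14.5% lower. Wnt7a, a neural ligand that induces the barrier (0.63 ± 0.17), the Wnt transcription factor Lef1 (0.30 ± 0.07) and the lipid transporter Mfsd2a (0.40 ± 0.12) rose. Axin2, a Wnt target gene (-0.70 ± 0.13), the transferrin receptor Tfrc (-0.46 ± 0.08) and the lactate carrier Slc16a1 (-0.54 ± 0.16) fell. Lef1 and Axin2 had opposite signs.

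Of 6 measured genes of inflamed endothelium, Selp, the adhesion molecule P-selectin, fell at 12 weeks (-1.08 ± 0.22, adjusted p = 0.00827), and Lcn2 rose (0.39 ± 0.13, adjusted p = 0.0405). Selp had -1.41, -0.96 and -1.91 in 6-week knockouts, against -0.54, -0.46 and -0.72 in 6-week wild types, and was not called there (-0.85 ± 0.22, adjusted p = 0.103). Of 4 flow-regulated genes Nos3, the endothelial nitric oxide synthase, rose at 12 weeks (0.36 ± 0.09). Of 9 further mural genes none was called between genotypes, and Anpep, a pericyte peptidase, rose with age in knockout (0.57 ± 0.12). At 12 weeks all 9 changes between genotypes were above 0, against 51.8% of all genes, with a median of 0.22. The median deviations of these 9 genes were 0.19 to 0.30 in 12-week knockouts, against -0.15 to 0.16 in 12-week wild types. None of these 17 calls at 12 weeks, nor those of Col4a1 and Anpep, held with slide as a block. In that fit the 12-week changes of Sparc (0.01), Jag1 (-0.02), Nid1 (0.08), Mfsd2a (0.11), Axin2 (-0.19), Selp (-0.36), Pdgfb (0.28) and Wnt7a (0.32) were closer to 0 than without it. So were those of Col4a2 (0.52), Unc5b (-0.24), Lef1 (0.23), Tfrc (-0.33) and Nos3 (0.27), and by less those of Angpt1 (-0.38) and Slc16a1 (-0.50). Those of Jag2 (0.37) and Lcn2 (0.40) were larger.

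Markers of other cells were measured on the same arrays, and their part in the vessel results was not tested. Genes beyond 3 per list are again named after their values were seen. No marker of astrocytes, microglia, oligodendrocytes, neurons, choroid plexus, meningeal fibroblasts or blood was called at 6 weeks. At 12 weeks 21 of 59 were called (35.6%, against 33.0% of all genes), and none with slide as a block. Of 7 blood genes, Hba-a1 (0.70), Alas2 (0.71), S100a8 (2.40) and S100a9 (2.17) rose at 12 weeks, and all 7 had changes above 0 at both ages. With slide as a block Hba-a1 had 1.05, Alas2 0.79, S100a8 5.27 and S100a9 4.94. The summed blood level, in multiples of the array's 75th percentile, was 94.3 to 154 in 12-week knockouts, against 64.6 to 90.8 in 12-week wild types. At 6 weeks it was 58.9 to 85.4 in knockouts, against 53.1 to 70.3 in wild types.

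Microglial genes rose in 4 of 9 cases at 12 weeks (C1qa, Tmem119, Csf1r and Cx3cr1). Astrocyte genes rose in 3 of 9 cases (Aldh1l1, Fgfr3 and Gfap) and fell in 1 (Gja1). With the slide block these microglial changes lay between 0.03 and 0.19, and the astrocyte ones between -0.07 and 0.24. Oligodendrocyte genes rose in 4 of 8 cases (Cnp, Mbp, Mobp and Mag) and fell in 1 (Opalin). With the slide block Mag (-0.15) and Mobp (-0.16) turned sign, Mbp had 0.09, Cnp 0.28 and Opalin -0.57. Of 8 neuronal genes Rbfox3 rose (0.06 with the slide block). Of 9 meningeal fibroblast genes Col1a1 and Ptgds rose and Dcn fell, and Ptgds turned to -0.13 with the slide block. Of the 9 genes 4 had changes above 0 and 5 below (median -0.05). Their median deviations overlapped, at -0.10 to 0.28 in 12-week knockouts and -0.10 to 0.19 in 12-week wild types. The summed level of the 9 genes, to which the brightest add most, was 321 to 337 in 12-week knockouts, against 221 to 228 in 12-week wild types. That sum also stood at 328 in 6-week knockout replicate 3 on slide 2, against 201 and 205 in replicates 1 and 2 on slide 1. Of 9 choroid plexus genes none was called at either age, and all 9 had changes below 0 at 6 weeks (median -0.34). The median deviation of these genes was -0.18, -0.73 and -0.02 in 6-week knockouts, against 0.17, -0.05 and -0.01 in 6-week wild types. Without knockout replicate 2, an omission chosen after the values were seen, the median change was -0.10, with 8 of 9 below 0.

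Markers of other cells also moved with age. In wild type all 8 oligodendrocyte genes had an unadjusted p under 0.05 and none was called, and 7 were wholly lower at 12 weeks. Their summed level was 276 to 279 in 12-week wild types, against 363 to 375 in 6-week wild types. In knockout all 7 blood genes (median 0.84) and all 9 choroid plexus genes (median 0.57) had changes with age above 0, and none was called. Of the 59 markers, 1 rose with age in wild type (Slc6a13), and in knockout 1 rose (C1qa) and 2 fell (Opalin and Cldn11). Their part in the age results was not tested.

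A list of 12 immediate early genes, which cells switch on within minutes of stimulation, was added with its values known. At 6 weeks 7 of 12 rose, and 11 were wholly higher in knockout. Over all genes 0.547% were called higher and 15.3% were wholly higher. By adjusted p the first were Atf3 (1.62 ± 0.12), Fosb (1.24 ± 0.11) and Arc (0.99), and Egr2 (1.13) and Fos (1.04) had larger changes than Arc. At 12 weeks 7 of 12 fell, where 14.5% of all genes were called lower, and none of the 7 kept its call with slide as a block. In that fit Atf3 had -1.14 (-0.89 without the block), Egr2 -0.86 (-0.69), Nr4a1 -0.47 (-0.35), Egr1 -0.31 (-0.28), Fos -0.74 (-0.78), Junb -0.48 (-0.65) and Dusp1 -0.20 (-0.64). Edn1 rose at 12 weeks (0.37, or 0.52 with slide as a block), while without the block 10 of these 12 genes were below 0. With age in wild type, where Edn1 rose, 2 of these genes rose (Atf3 and Fosb) and 11 were wholly higher. Over all genes 0.430% were called higher and 12.7% were wholly higher in that comparison. With age in knockout 7 of the 12 fell and 11 were wholly lower, against 0.913% of all genes called lower and 14.5% wholly lower. Edn1 had -0.14 in that comparison and was not called. For the genotype effect at 12 weeks minus that at 6 weeks, all 12 were below 0 and 5 were called, where Edn1 had -0.82. Of all genes 0.143% were called lower there. The summed level of the 12 genes was 117 to 132 in 6-week knockouts, against 70.1 to 76.1 in 6-week wild types. At 12 weeks it was 70.4 to 87.0 in knockouts, against 91.5 to 104 in wild types. Of the members called at 6 weeks, Edn1 and Cldn5 kept their call with slide as a block, as did 4 of these 7 genes. The part of stimulation or handling of the tissue in the vessel results was not tested.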

How the data were processed

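Total RNA of 12 whole brains was labelled with Cy3 and hybridised to Agilent one-colour arrays. The deposited scan files hold spot intensities, background-subtracted and spatially detrended within each array and not normalized between arrays, per the file headers. Agilent Feature Extraction 10.7.3.1 was used, per the submitters' processing notes. Per the file headers, the deposited 0 or 1 flags (other values) mark outlier spots, saturated spots and spots well above background, and probe positions are on mm9. The authors' value table held the same intensities to within 0.498%.

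From these, log2 processed signal was taken without outlier spots, minus log2 of each array's 75th percentile over non-control spots. Spots were averaged per probe, 37202 probes that exceeded background on every array of 1 group or more were kept, and the probe with the highest mean stood for each gene. The 26498 genes were fitted with limma 3.58.1 in R 4.3.3 with 1 mean per group and 8 residual degrees of freedom. Benjamini-Hochberg adjustment ran over all genes separately for the 5 comparisons, with an adjusted p under 0.05 as the threshold for a call. The script was tested on simulated data. P-values measure the spread between these samples, which the labels call biological replicates, and the number of arrays limits precision.

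All 44 members are named. From each other list, up to 3 called genes per comparison were to be named by smallest p. Further called genes were named after their values were seen. The members and lists were chosen with earlier results of these data known. Slide, slide column and replicate number as blocks, normexp correction with an offset of 50, other scalings, filters, probe rules and fits, the value table and leaving out each array were tried. Replicate numbers do not pair the samples: of 18 same-numbered pairs 2 had deviations correlated over 0.1 (r from -0.204 to 0.110).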

Additional observations from a re-analysis of the deposited data

How the results depend on the processing

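Members called are given in each case. At 6 weeks, with 3 in the fit as reported, normexp correction gave 8, scaling to the median and a trended, robust eBayes fit 6 each, and 1 each came from slide column as a block, slide 1 arrays only and a fit of the compared groups alone. At 12 weeks, against 16, the slide block gave 0 and the column block 10. For this comparison the column block matches leaving out 12-week wild-type replicate 1, with 5926 of all genes called in each, so they are not separate settings. With age in wild type, against 2, quantile normalization and the trended fit gave 5 each, the slide block and a filter for background on all 12 arrays 4 each, scaling to the median and the compared groups alone 1 each, and the column block and no filter 0. With age in knockout, against 3, the trended fit gave 8, the column block 1, and the slide block, no filter and the compared groups alone 0. For the difference between ages, against 0, the column block gave 1 (Gpr182) and the filter for all 12 arrays 1 (Edn1).

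With the replicate block the counts were 2 at 6 weeks, 15 at 12 weeks, 1 with age in wild type and 0 with age in knockout. Leaving out 1 array gave 1 to 4 at 6 weeks, 8 to 15 at 12 weeks, 0 to 2 with age in wild type, 0 to 17 with age in knockout and 0 to 7 for the difference between ages. The values of 17 and 7 both came without 6-week knockout replicate 3. No called change of the 44 members reversed its sign under any of these settings; of the other genes named, Ptgds, Mag and Mobp did so at 12 weeks with the slide block. Scaling to the median gave 24 members higher and 0 lower at 12 weeks, where it put the median change of all genes at 0.14 in place of 0.02. Slide 1 arrays alone could not be used for comparisons with 12-week knockouts, which all lay on slide 2. Where a count changed, the cause was not tested.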
